A study of Mus musculus with 8 samples.

Results

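To see how the p53 pathway stood in hematopoietic stem cells (HSCs) that had lost MITOL, the mRNA of p53 (Trp53), its regulators Mdm2 and Mdm4 and the direct p53 targets Ccng1, Zmat3, Eda2r, Phlda3, Trp53inp1 and Aen was read from bulk RNA-seq. These 9 genes were taken by symbol from the 22065 named genes of the count table. All 9 were present, and all 9 passed the filter on low counts that left 16444 genes for testing. MITOL, encoded by Marchf5, is a ubiquitin ligase of the outer mitochondrial membrane.

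The table holds 4 libraries from MitolΔ/Δ HSCs (the samples labelled Mitol knockout) and 4 from control HSCs, each from 100 sorted bone marrow cells of C57BL/6 mice aged 8 to 10 weeks. MitolΔ/Δ mice carried floxed Mitol alleles and the interferon-inducible MX1-cre, which also acts outside the blood. Control mice carried the same floxed alleles without cre, and both groups had received polyinosinic-polycytidylic acid (Poly:IC) 1 week earlier, so the interferon stimulus was common to them. HSCs were sorted as Lineage-, c-Kit+, EPCR+, CD150+ and CD48- cells.

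p53 is a transcription factor that is held low in unstressed cells because MDM2 marks the protein for degradation and MDM4 masks its activation domain. DNA damage, nucleolar stress and other insults release it, mostly by protein modification rather than by more mRNA, and it then switches on genes for cell cycle arrest, repair and cell death. Mdm2 is itself a target, which closes a negative feedback loop. In HSCs p53 is known for holding cells in quiescence and for removing damaged cells.

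p53 reaches its targets through a pair of adjacent half-sites, the p53 response element. Within 5000 bases on either side of the annotated start, elements with no gap between the half-sites and at most 1 mismatch to the consensus lay near Zmat3, Ccng1 and Cdkn1a (p21, shown because it is the target with the largest rise below). Of 21757 protein-coding genes, 1.67% had such a match in a window of this length. The elements are given with the consensus-length match in capitals, read from GRCm39 on the strand of the gene.
Zmat3, first intron, chr3:32418475-32418504, minus strand: gtgagAAACAAGCCCAGGCATGTCTtggga
Zmat3, upstream, chr3:32424295-32424324, minus strand: ttggaGAGCAAGTCTGGGCTTGTTAgttta
Ccng1, upstream, chr11:40646284-40646313, minus strand: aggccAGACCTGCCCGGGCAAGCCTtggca
Ccng1, first intron, chr11:40645758-40645787, minus strand: ccggaACGCAAGCCCGGGCTAGTCTgcgcc
Cdkn1a, upstream, chr17:29309897-29309926, plus strand: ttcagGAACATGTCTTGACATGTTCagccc

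The element in the first intron of Zmat3 had 0 mismatches, which 0.193% of the genes share, and the other 4 had 1 each. With 2 mismatches allowed, a match in the first intron of Eda2r was added, at a background of 9.87% of genes. These are matches of letters. Binding was not measured, and a target without a match may carry its element elsewhere or with a gap.

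In the libraries as a whole, counts on named genes ran from 7214935 to 12398138, and the lowest sum was that of control replicate 1. The count on Marchf5 did not mark the deleted libraries, with normalized counts between 232 and 308.5 in MitolΔ/Δ and between 262 and 334 in control HSCs (log2 fold change -0.15, standard error (SE) 0.13, adjusted p = 0.498 by the quasi-likelihood test of edgeR). According to the paper, mice were taken as MitolΔ/Δ after a PCR check had shown the deletion of the gene. Genes of the HSC list, all of them detected, summed to between 2640.0 and 2990.0 CPM (counts scaled to library size) in MitolΔ/Δ HSCs against 3970.0 to 5040.0 in control HSCs. Of these 9 genes edgeR called 3 lower and 0 higher, where 3.75% of all tested genes were called lower and 4.68% higher. Kit, which encodes the c-Kit of the sort, was among those lower in MitolΔ/Δ HSCs (log2 fold change -0.75, adjusted p = 0.00705, edgeR). Slamf1, which encodes the CD150 of the sort, went the other way (log2 fold change 0.56, adjusted p = 0.0501 by edgeR, 0.0117 by DESeq2). Ly6a did so too (log2 fold change 0.76, adjusted p = 0.061 by edgeR, 0.0107 by DESeq2). Red-cell genes summed to between 101 and 376 in MitolΔ/Δ and between 44.2 and 82.3 in control HSCs, with 1 of 4 tested genes, Hbb-bt, called. Neutrophil genes reached 105 against 64.7, and megakaryocyte genes to between 38.6 and 169 against 75.3 to 91.6, with Pf4 called lower. B-lineage, T-cell and mast-cell genes did not exceed 22.2 CPM in any library. Of these lists, Ebf1, Pax5, Cd3e, Cd3g, Cd8a, Trac, Mcpt8, Prss34, Ms4a2 and Tpsb2 were not analysed here, so the mast-cell value is that of Cpa3 alone. The part of these shifts in the results below was not tested, and in bulk RNA fewer cells of a type and less RNA per cell cannot be told apart.

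Trp53, the gene of p53 itself, was the single member that rose. The gene spans chr11:69469669-69482701 (GRCm39, plus strand). Normalized counts of Trp53 (counts divided by a size factor for library depth) were 2295, 2390.0, 2221 and 2079 in MitolΔ/Δ replicates 1 to 4 and 1990.1, 1656, 1778 and 1719 in control replicates 1 to 4. Every MitolΔ/Δ library lay above every control library, with the narrowest gap between MitolΔ/Δ replicate 4 and control replicate 1. The means were 2246 ± 131 and 1786 ± 145 (SD, n = 4), a 1.24-fold rise with a 95% interval from 1.09 to 1.41 (log2 fold change 0.31, SE 0.085, adjusted p = 0.0423, edgeR). By that rule 4.68% of all tested genes were called higher in MitolΔ/Δ HSCs, and 8.17% had all 4 libraries above the controls.

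The call on Trp53 rested on nearly every library. It was lost without MitolΔ/Δ replicate 1, 2 or 3 (adjusted p = 0.0958, 0.112 and 0.0827 by edgeR) and without control replicate 2, 3 or 4 (adjusted p = 0.127, 0.0897 and 0.101 by edgeR), while the log2 fold change stayed between 0.28 and 0.38 in the 8 fits that left out 1 library.

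Other genes share sequence or position with Trp53. Its pseudogene Trp53-ps held between 2 and 12 reads in a library, against 1509 to 2932 on Trp53. Wrap53, whose exons share 263 bases with those of Trp53 on the opposite strand, had 203 ± 25.3 normalized counts in MitolΔ/Δ and 160 ± 16.8 in control HSCs (log2 fold change 0.32, SE 0.15, adjusted p = 0.192, edgeR). Exons of Trp53 also share 156 bases with the long noncoding RNA gene Gm57392 on the opposite strand. So do those of Aen with Gm73250 (1214 bases) and those of Mdm2 with Gm56970 (348 bases). These noncoding genes were not analysed here. The strand setting of the counting is not given in the sources used here, so reads in any of the shared bases cannot be told apart.

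**Figure D1:**
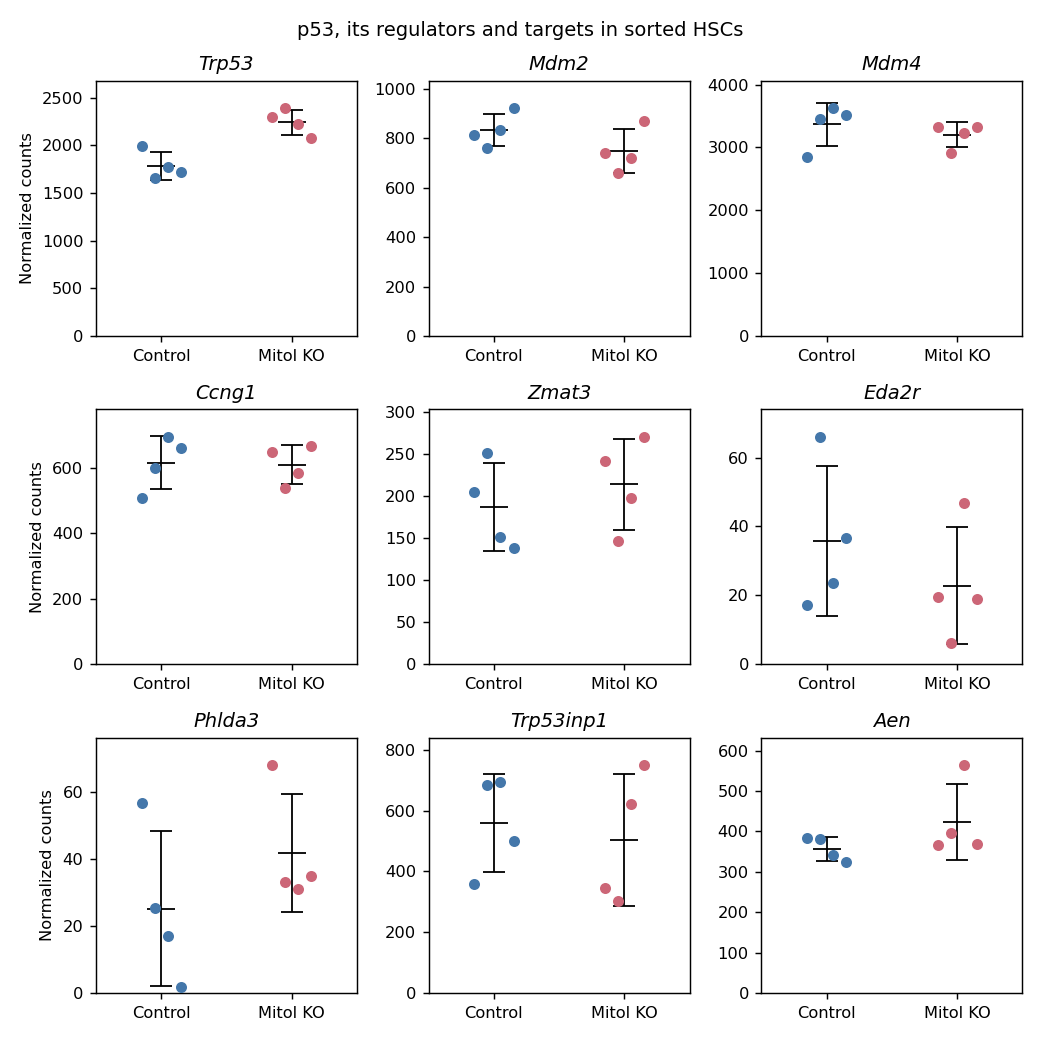
Normalized counts of the 9 genes in each of the 4 control (blue) and 4 MitolΔ/Δ (red) libraries, with mean and SD as bars and a linear axis from 0 for each gene. Trp53 alone shows 2 groups that do not overlap, from 2079 to 2390.0 in MitolΔ/Δ against 1656 to 1990.1 in control HSCs.

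Neither regulator of p53 rose with it. Mdm2, the ubiquitin ligase of p53 and at the same time its target, had normalized counts of 740.4, 661, 722 and 869.7 in MitolΔ/Δ replicates 1 to 4 and 815, 763, 836 and 921 in control replicates 1 to 4. In 3 of 4 MitolΔ/Δ libraries the count was below the lowest control library, and in replicate 4 it was above all but the highest. The log2 fold change was -0.17 (SE 0.11, adjusted p = 0.326, edgeR), with a 95% interval from 0.753 to 1.04 on the linear scale, so a rise as large as that estimated for Trp53 lies outside it.

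Mdm4, which masks the activation domain of p53, had normalized counts of 3331, 2917, 3226 and 3328.5 in MitolΔ/Δ replicates 1 to 4 and 2854, 3458, 3621 and 3523 in control replicates 1 to 4. The groups overlapped through control replicate 1, the lowest of all 8 libraries. Its log2 fold change was -0.090 (SE 0.093, adjusted p = 0.575, edgeR), with a fold between 0.817 and 1.08.

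None of the 6 targets passed the threshold. The number with an unadjusted p under 0.05 was also 0, as was the number called by DESeq2, where edgeR called 8.43% of all tested genes and DESeq2 14%. Their median log2 fold change was 0.075, beside -0.020 over all tested genes, and in 3 of 6 it was above 0. In none of the 6 did the groups separate, which happened in 15.4% of all tested genes (8.17% with MitolΔ/Δ higher and 7.18% with it lower).

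Ccng1, which encodes cyclin G1 and recruits a phosphatase to MDM2, was the most evenly expressed target. It had normalized counts of 648, 537, 585 and 668 in MitolΔ/Δ replicates 1 to 4 and 509, 600.1, 694 and 659 in control replicates 1 to 4. The means of 610 ± 59.7 and 616 ± 81.0 were closer than the spread within either group, and the interval of the fold ran from 0.815 to 1.17 (adjusted p = 0.885, edgeR). Like Zmat3, it carries a response element match both upstream and in the first intron, printed above. Its exons share 114 bases with those of Nudcd2 on the opposite strand, a gene that rose in MitolΔ/Δ HSCs (log2 fold change 0.81, SE 0.18, adjusted p = 0.0207, edgeR).

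Aen, an exonuclease that takes part in p53-driven apoptosis, had 367, 397, 564 and 368 normalized counts in MitolΔ/Δ replicates 1 to 4 and 384, 381, 341 and 324 in control replicates 1 to 4. MitolΔ/Δ replicate 3 stood well above the other 7 libraries, whose values overlapped. The log2 fold change was 0.23 (SE 0.15, adjusted p = 0.360, edgeR) and fell to 0.075 without that replicate.

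Zmat3, an RNA-binding protein and tumor suppressor effector of p53, had 243, 147, 198 and 271 normalized counts in MitolΔ/Δ replicates 1 to 4 and 206, 252, 152 and 138 in control replicates 1 to 4. The groups covered nearly the same range, in the gene whose first intron holds the element without a mismatch. The log2 fold change was 0.19 (SE 0.23, adjusted p = 0.649, edgeR), and folds from 0.807 to 1.60 were within the interval.

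Trp53inp1, a stress protein that promotes p53 activity and autophagy, varied 2.49-fold over the 8 libraries. Its normalized counts were 344, 301, 621 and 749 in MitolΔ/Δ replicates 1 to 4 and 359, 683, 694 and 498 in control replicates 1 to 4. High and low libraries occurred in both groups, and the log2 fold change of -0.17 (SE 0.28, adjusted p = 0.751, edgeR) was smaller than its error.

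Eda2r, a death receptor of the TNF receptor family, and Phlda3, an inhibitor of AKT, had few reads, from 6 to 62 and from 2 to 87 in a library. Eda2r had 19.6, 6.2, 46.7 and 19.0 normalized counts in MitolΔ/Δ replicates 1 to 4 and 17.1, 66.0, 23.5 and 36.8 in control replicates 1 to 4. Phlda3 had 68.1, 33.3, 31.1 and 34.9 in MitolΔ/Δ replicates 1 to 4 and 56.7, 25.5, 17.0 and 1.8 in control replicates 1 to 4, the last resting on 2 reads. The groups overlapped in both genes, with log2 fold changes of -0.66 for Eda2r (SE 0.55) and 0.76 for Phlda3 (SE 0.62). Their fold intervals, from 0.277 to 1.45 and from 0.662 to 4.34, left room for a several-fold fall of Eda2r and a several-fold rise of Phlda3.

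Per kilobase of annotated exon, the order of levels in control HSCs was Trp53 (242 ± 19.7 normalized counts per kilobase), Mdm4 (165 ± 17.0), Ccng1 (140 ± 18.4), Mdm2 (108 ± 8.55), Trp53inp1 (76.1 ± 21.9), Aen (31.5 ± 2.60), Zmat3 (16.3 ± 4.57), Phlda3 (9.76 ± 8.95) and Eda2r (4.78 ± 2.89). Neighbors from Mdm4 to Mdm2 and from Zmat3 to Eda2r overlapped between control libraries, and the other neighbors did not. In MitolΔ/Δ HSCs the order of the means was the same, with Trp53 at 304 ± 17.8 and still apart from Mdm4 at 157 ± 9.59. Lengths are the union of all annotated exons, which lowers genes with many isoforms, such as Mdm4 with 20386 bases.

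To compare Trp53 with its regulators and targets within the same libraries, the log2 level of Trp53 was subtracted from that of every other gene and the difference tested with limma. Trp53 had 3.10, 3.62, 3.07 and 2.39 counts per count of Mdm2 in MitolΔ/Δ replicates 1 to 4 and 2.44, 2.17, 2.13 and 1.87 in control replicates 1 to 4. MitolΔ/Δ replicate 4 lay just under control replicate 1, and the other 3 MitolΔ/Δ libraries were above all controls. The change of Mdm2 was lower than that of Trp53 by a log2 difference of -0.49 (95% interval -0.78 to -0.20, adjusted p = 0.0220, limma). For Mdm4 the same difference was -0.40 (95% interval -0.68 to -0.12, adjusted p = 0.0415, limma), with 0.689, 0.819, 0.688 and 0.625 counts of Trp53 per count of Mdm4 in MitolΔ/Δ replicates 1 to 4 and 0.697, 0.479, 0.491 and 0.488 in control replicates 1 to 4. Here, too, control replicate 1 overlapped the other group.

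These 2 of 8 genes must be read against the table, in which 26% of all genes differed from Trp53 under the same rule, 24.5% below it and 1.53% above. All of these comparisons share the Trp53 values. The share among its regulators and targets was thus near the background. Both calls were lost in 6 of the 8 fits that left out 1 library, namely each of MitolΔ/Δ replicates 1 to 3 and control replicates 2 to 4, where the adjusted p of limma reached 0.0682 for Mdm2 and 0.121 for Mdm4.

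For the 6 targets the difference from Trp53 was -0.34 for Ccng1 (95% interval -0.68 to -0.0082, adjusted p = 0.111, limma), -0.11 for Aen, -0.13 for Zmat3, -0.53 for Trp53inp1, -1.04 for Eda2r and 0.85 for Phlda3. None was called, and the adjusted p of the last 5 lay between 0.170 and 0.699. Without control replicate 1, Ccng1 passed the threshold (adjusted p = 0.0195, limma), and Trp53inp1 did so without MitolΔ/Δ replicate 4 (adjusted p = 0.0460, limma). The intervals of Zmat3 (-0.67 to 0.40) and Aen (-0.44 to 0.23) include a change equal to that of Trp53 as well as none at all. So do the wider intervals of Trp53inp1 (-1.23 to 0.16), Eda2r (-2.24 to 0.16) and Phlda3 (-0.52 to 2.22).

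**Figure D2:**
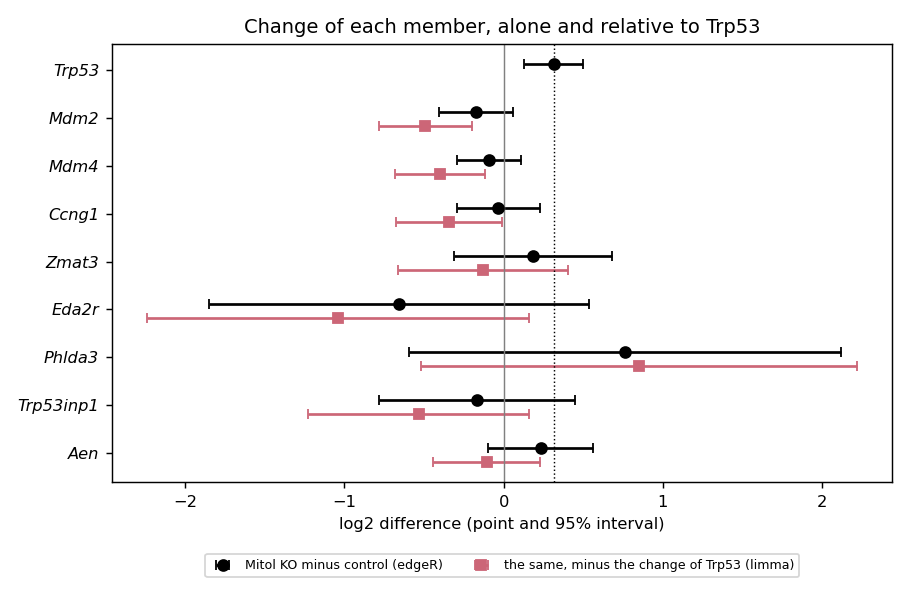
Log2 fold change of each gene between MitolΔ/Δ and control HSCs (black circles, edgeR) and the same change minus that of Trp53 (red squares, limma), each with its 95% interval; the dotted line marks the change of Trp53, 0.31. Only for Trp53 does the black interval lie clear of 0, and the red intervals of Mdm2, Mdm4 and Ccng1 lie below 0.

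**Figure D3:**
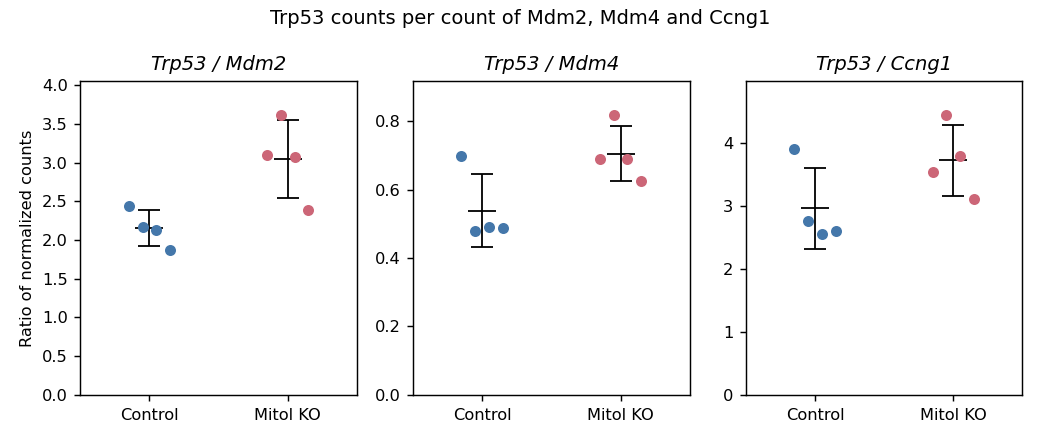
Normalized counts of Trp53 per normalized count of Mdm2, Mdm4 and Ccng1 in each library, with mean and SD for 4 control (blue) and 4 MitolΔ/Δ (red) libraries. The mean ratio to Mdm2 was 3.05 ± 0.503 in MitolΔ/Δ and 2.15 ± 0.236 in control HSCs, and 1 library of each group overlaps in that panel.

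Within groups, 6 of 8 genes deviated in the direction opposite to Trp53. The share over all genes is not given here, so this count cannot be read as particular to the p53 genes. The correlation of deviations from the group mean with those of Trp53 over 8 libraries ran from -0.81 for Mdm4, -0.80 for Trp53inp1 and -0.71 for Ccng1 to 0.15 for Aen and 0.43 for Phlda3. These values describe 8 libraries that differ in depth, and control replicate 1, with the lowest Mdm4 and Ccng1 and the highest Trp53 of its group, weighs on them. Among 10223 genes with at least 100 mean normalized counts, those most like Trp53 by this measure were Hnrnpf (r = 0.99), Pdxk (r = 0.98) and Gm45819 (r = 0.98). Between groups their log2 fold changes were 0.45, 0.066 and -0.45, none of them called (adjusted p = 0.198, 0.701 and 0.105, edgeR).

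Beyond the members, 50 further p53 targets were listed by function, of which 47 were tested. Of these, 5 were called higher and 1 lower, at a background of 4.68% higher and 3.75% lower. The median log2 fold change was 0.12, and the 6 were Cdkn1a, Gtse1, Ckap2, Rps27l and Fbxw7 upwards and Ptprv downwards. Gtse1 and Ckap2 also act at the spindle, and their rise cannot be told apart from that of the cell cycle genes below. Without any 1 of MitolΔ/Δ replicates 1 to 3 or control replicates 2 and 4, 2 genes were called, Cdkn1a and Gtse1, and without MitolΔ/Δ replicate 4, 9 were.

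Among 14 arrest and feedback genes, Cdkn1a, which encodes the cyclin-dependent kinase inhibitor p21, rose most. Its normalized counts were 323, 337, 429 and 385 in MitolΔ/Δ replicates 1 to 4 and 113, 182, 43.3 and 33.2 in control replicates 1 to 4. The lowest MitolΔ/Δ library was well above the highest control library, and the controls differed more among themselves than the MitolΔ/Δ libraries did. The log2 fold change was 1.99 (SE 0.41, adjusted p = 0.0170, edgeR), and the call held in all 8 fits that left out 1 library, with log2 fold changes from 1.70 to 2.57. The response element upstream of Cdkn1a is the fifth of the sequences above.

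Gtse1, which restrains p53 and acts at the mitotic spindle, rose to 269.5 ± 73.1 normalized counts from 75.6 ± 18.7 in control HSCs (log2 fold change 1.81, SE 0.23, adjusted p = 0.00381, edgeR). Ckap2, a spindle protein, rose to 178 ± 56.5 from 81.5 ± 20.4 (log2 fold change 1.11, SE 0.25, adjusted p = 0.0242, edgeR), with 1 MitolΔ/Δ library among the controls. Ptprv, a phosphatase gene that p53 induces in mice, fell to 345 ± 45.0 from 586 ± 158 (log2 fold change -0.79, SE 0.18, adjusted p = 0.0261, edgeR). So the called genes of this list went in both directions, and the growth arrest gene Gadd45a stood at a log2 fold change of -0.58 (adjusted p = 0.406, edgeR) and the p53 phosphatase Ppm1d one of -0.015 (adjusted p = 0.966, edgeR).

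Of 18 genes for cell death, 17 were tested, 6 had an unadjusted p under 0.05, DESeq2 called 2, and edgeR, which called 8.43% of all tested genes, called 1, the ribosomal protein gene Rps27l (log2 fold change 0.65, SE 0.18, adjusted p = 0.0475, edgeR). Rps27l had 236.5 ± 37.9 normalized counts in MitolΔ/Δ and 150 ± 30.1 in control HSCs. Bax, which opens the outer mitochondrial membrane, had separate groups and a log2 fold change of 0.43 that did not pass (adjusted p = 0.0972 by edgeR, 0.0488 by DESeq2). Trp53i13 and Cd82 separated the other way, with log2 fold changes of -0.26 and -0.36 that did not pass either, and groups separated in 15.4% of all tested genes. The BH3-only gene Bbc3 (PUMA) had 28.5 ± 13.5 and 36.2 ± 10.7 normalized counts (adjusted p = 0.582, edgeR), and the death receptor gene Fas 11.98 ± 7.80 and 17.2 ± 9.21 (adjusted p = 0.572, edgeR). Pmaip1 (NOXA) did not pass the filter, with at most 14.8 normalized counts in any library.

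None of 7 DNA repair targets was called, with 2 at an unadjusted p under 0.05 and 1 called by DESeq2. Over all tested genes edgeR called 8.43% and DESeq2 14%, so a list this short can hold 0 calls at the background rate. Among 9 tested metabolic and stress targets, Fbxw7, a ubiquitin ligase subunit, rose to 689.7 ± 68.3 from 537 ± 18.9 normalized counts (log2 fold change 0.34, SE 0.098, adjusted p = 0.0496, edgeR). In that list 3 genes had an unadjusted p under 0.05, and DESeq2 called 1. For Sesn1, an inhibitor of mTORC1 signaling, the log2 fold change was -0.15 (adjusted p = 0.473, edgeR).

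Upstream of p53, none of 10 damage kinases and mediators passed the threshold, where 1 had an unadjusted p under 0.05 and 1 was called by DESeq2, in both cases Chek1. Over all tested genes edgeR called 8.43% and DESeq2 14%, so 0 of 10 is near the background. The log2 fold changes were -0.015 for Atm, 0.024 for Atr and 0.066 for Chek2, and 0.75 for Chek1 (SE 0.28, adjusted p = 0.110 by edgeR, 0.0496 by DESeq2), the checkpoint kinase of replicating cells. Of 11 ubiquitin ligases and deubiquitinases, 2 rose, and DESeq2 called 2 as well, at a background of 8.43% called by edgeR over all tested genes. At an unadjusted p under 0.05 there were 4, of which Rchy1 and Rffl, both ubiquitin ligases, had negative log2 fold changes of -0.39 and -0.28. Usp7, which removes ubiquitin from MDM2 and p53, had 2076, 2039.8, 1908 and 1915 normalized counts in MitolΔ/Δ replicates 1 to 4 and 1663, 1558, 1688 and 1475 in control replicates 1 to 4. Usp10, a deubiquitinase of p53, had 1485, 1597, 1353 and 1161.7 in MitolΔ/Δ replicates 1 to 4 and 1160.5, 1041, 1001 and 837 in control replicates 1 to 4. In neither gene did the groups overlap, though for Usp10 MitolΔ/Δ replicate 4 was barely above control replicate 1. In this list of 11 the groups separated with MitolΔ/Δ higher in 3 genes and lower in 1. Over all tested genes, 8.17% separated with MitolΔ/Δ higher and 7.18% with it lower. The log2 fold changes were 0.30 for Usp7 (SE 0.078, adjusted p = 0.0390, edgeR) and 0.45 for Usp10 (SE 0.12, adjusted p = 0.0373, edgeR).

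Of 6 tested genes whose products bind MDM2, such as the ribosomal proteins Rpl5 and Rpl11, none was called, and the number at an unadjusted p under 0.05 and by DESeq2 was 0. Of 10 acetylation enzymes and cofactors none was called by edgeR, with 1 at an unadjusted p under 0.05 and 1 by DESeq2. Both lists are short beside the 8.43% of all tested genes called by edgeR and the 14% called by DESeq2. Over all 37 tested upstream genes the median log2 fold change was 0.053. Without any 1 of MitolΔ/Δ replicates 1 to 3 or control replicates 2 to 4, 0 upstream genes were called by edgeR, and without MitolΔ/Δ replicate 4, 3 were. Cdkn2a and the p53 relatives Trp63 and Trp73 were not analysed here.

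Cell cycle genes that p53 and p21 can keep low through the DREAM repressor complex were higher in MitolΔ/Δ HSCs. Of 17 such genes, 16 were called higher, where 4.68% of all tested genes were, with a median log2 fold change of 1.44 beside -0.020 over all tested genes, and the remaining gene, Kif23, stood at a log2 fold change of 0.61 (adjusted p = 0.134, edgeR). The lowest p-values were those of Bub1b, a spindle checkpoint kinase, with a log2 fold change of 1.36 (SE 0.23, adjusted p = 0.00844, edgeR), Cdc20, an activator of the anaphase-promoting complex, with 1.46 (SE 0.25, adjusted p = 0.00934, edgeR), and Ccna2, which encodes cyclin A2, with 1.90 (SE 0.35, adjusted p = 0.0119, edgeR). Without control replicate 2, 4 of the 17 were called, without MitolΔ/Δ replicate 2, 6 were, without control replicate 4, 7 were, and without MitolΔ/Δ replicate 1, 8 were. In the same libraries Cdkn1a, whose product is known to hold these genes down, was higher as well. Whether either rise involved p53 or the share of cycling cells was not tested.

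**Figure D4:**
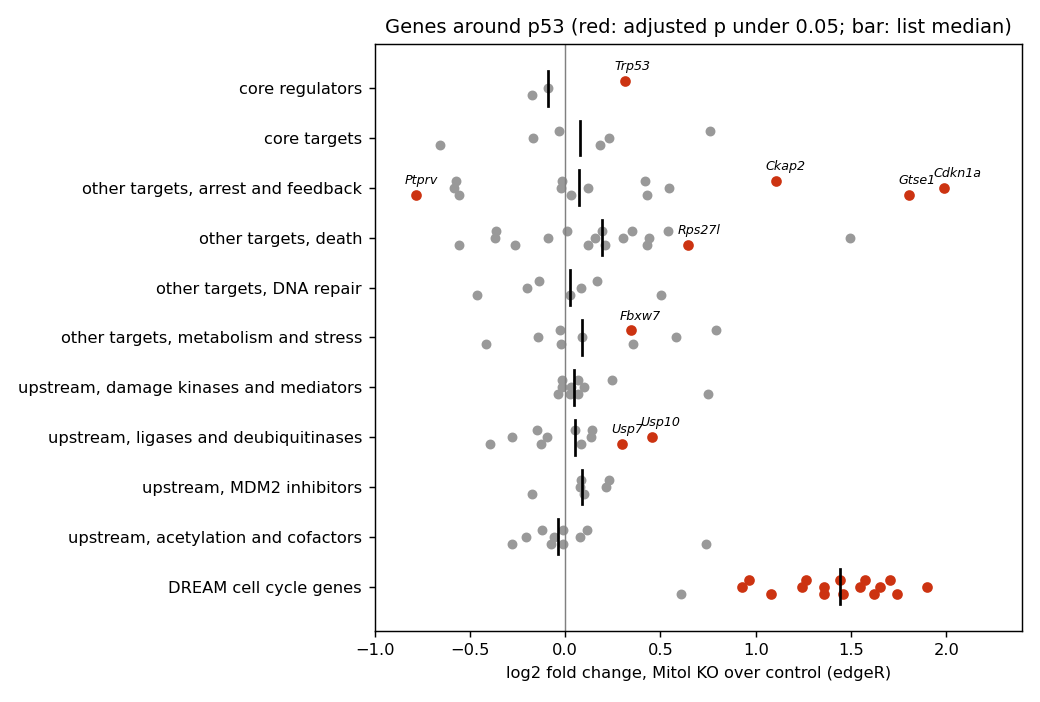
Log2 fold change between MitolΔ/Δ and control HSCs for each tested gene of the p53 lists, 1 row per list, with genes past the adjusted threshold in red and the median of each list as a black bar. The DREAM genes lie to the right of 0 as a group, from 0.61 to 1.90. In the other lists the medians are near 0, and Cdkn1a and Gtse1 lie furthest to the right among their genes.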

How the data were processed

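Single-end reads were aligned by the authors to mm39 (STAR), merged (SAMtools) and counted (Subread), and the raw counts were deposited. The annotation and strand setting are not given in the sources used here. Of 23094 rows, 1029 without a symbol (0.335% to 0.467% of a library's counts) were left out, and each row sums to at least 11. Groups were compared with edgeR 4.0.16 (quasi-likelihood, TMM, default filter, condition only, Benjamini-Hochberg over 16444 genes, threshold 0.05). Intervals are 95% from the standard error. Normalized counts use size factors of DESeq2 1.42.0. The comparison with Trp53 used limma 3.58.1 on log2 CPM (prior count 2) over 16443 genes, all of which share the Trp53 values. Positions and exon lengths are from GENCODE vM39, in which 21526 of 22065 symbols matched. The response element window was widened to 5000 bases after a first scan.

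Members and lists were chosen with earlier results of these data known. Named were all members, a fixed set of p53 genes, list members past the threshold (of the DREAM list the 3 lowest p-values), the 3 genes most like Trp53 and overlapping genes. Ppm1d, Kif23, Rpl5, Rpl11, Rchy1, Rffl, Trp53i13, Cd82, Slamf1, Ly6a and the called marker genes were added after the values were seen. No source says that libraries came from separate mice, so p-values measure the spread between these libraries. On simulated counts with 200 changed genes, edgeR recovered 84.0% of 2-fold and 97.0% of 4-fold changes over 16148 genes, with 4.71% of its calls false, against 12.8% for DESeq2 over 16444 genes. The changed genes were drawn from those with more reads, so the recovery does not extend to genes with few reads. Nor does it extend to a change as small as the 1.24-fold rise of Trp53. Counts on named genes, from 7214935 to 12398138 per library, and 4 libraries a group limit the precision. With Trp53 simulated at a 2-fold rise, the limma comparison found 6.40% of genes with the same change as Trp53 at an unadjusted p under 0.05 in 20 simulations.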

Additional observations from a re-analysis of the deposited data

Results flagged for a closer look

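In 18 groups of 4 libraries (9 genes in 2 groups), 2 held a library that stood apart from the other 3 by Dixon's criterion at the 95% level, where chance gives about 1 in 20 groups. Phlda3 had 68.1 normalized counts in MitolΔ/Δ replicate 1, with the next library at 34.9, and Aen had 563.9 in MitolΔ/Δ replicate 3, with the next at 396.9. These are different libraries. Neither gene was called with or without them.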

How the results depend on the processing

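The alternatives were other normalizations, no filter, DESeq2, limma-voom, a prior count of 0.5 for the comparison with Trp53, the replicate number as a block, and each library left out. The log2 fold change of Trp53 was 0.25 (adjusted p = 0.0711) with upper-quartile normalization and 0.31 (adjusted p = 0.0543) with the replicate number as a block, so that 0 members were called under both, and it stayed past the threshold under the 4 others with all libraries. The sources used here do not say whether equal replicate numbers pair libraries. The correlation of same-numbered deviations lay between -0.12 and 0.099, and such a correlation cannot settle the question. With the block, edgeR called 1652 genes in place of 1386. DESeq2 called 2315 genes and 4 upstream genes in place of 2.

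With 1 library left out, calls over all genes ran from 359 to 2501, members called from 0 to 1, other targets from 2 to 9, upstream genes from 0 to 3, DREAM genes from 4 to 16, and members differing from Trp53 from 0 to 3. The log2 fold change of Trp53 ran from 0.28 to 0.38. Gtse1 and Cdkn1a passed in all 8 such fits, Ptprv and Ckap2 in 3, Rps27l, Usp7 and Usp10 in 2 and Fbxw7 in 1. The lost calls were those without MitolΔ/Δ replicate 1, 2 or 3 or control replicate 2 or 4, for all but Ptprv and Ckap2 also control replicate 3, and for Fbxw7 control replicate 1. Signs turned for the log2 fold change of Ccng1 (range -0.10 to 0.029 with 0.026 without MitolΔ/Δ replicate 2, 0.029 and 0.0020 without control replicates 3 and 4), Trp53inp1 (range -0.41 to 0.015, the last without MitolΔ/Δ replicate 2) and, relative to Trp53, Zmat3 (range -0.29 to 0.067, with 0.067 without MitolΔ/Δ replicate 2, 0.059 without control replicate 2), none of them called. The cause was not tested. With all libraries kept, Fbxw7 lost its call under 4 of 6 alternatives, and Rps27l and Usp7 under 2 each. The 4 libraries per group, from 100 cells each, limit what can be detected, most of all for Eda2r and Phlda3.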
